A study of Mus musculus with 9 samples.

Results

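The genes of the T cell receptor complex and of its first signalling steps were followed across regulatory T cells (Tregs) of 3 genotypes. Membership was fixed by name as Cd3d, Cd3e, Cd3g, Cd247, Lck, Zap70, Lat, Cd5 and Themis, and each gene was read from its brightest array feature among those annotated to that gene alone. Of these 9 genes, 7 had such a feature, all 7 passed the filter on dim features, and they were tested among 12792 genes. Cd247, which encodes the ζ chain, and Lck, the kinase that starts the cascade, were not analysed here.

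Tregs had been sorted on a red fluorescent protein tied to Foxp3, out of the lamina propria (the connective tissue layer of the mucosa) of small and large intestine together. The 9 Affymetrix Gene ST2.0 arrays were 3 from Y3/CD103-/- mice, 3 from Y3 mice and 3 from WT mice, all of strain C57BL/6, each genotype spelled as in the labels. CD103 is the αE integrin chain, encoded by Itgae, and the series title names IL-2Rβ, encoded by Il2rb, beside it, although the labels do not say what Y3 is. No array came from mice lacking CD103 alone, and the labels give neither the age of the mice nor whether each array stands for its own animal. The p-values therefore measure the spread between these arrays, which may be technical.

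The antigen receptor of a T cell has almost no signalling tail of its own. It is held at the surface by the CD3 chains and the ζ chain, whose tails carry tyrosine motifs; Lck phosphorylates these motifs, ZAP-70 docks on them, and ZAP-70 in turn phosphorylates LAT, a membrane scaffold on which the next enzymes assemble. CD5 is a surface brake whose amount follows the strength of receptor signals in developing T cells, and THEMIS is an adaptor bound to GRB2 that tunes the signal through the phosphatase SHP-1. In Tregs, signals through this receptor maintain the effector state, beside those of IL-2.

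The largest difference among these genes was that of Themis. It was the only one of the 7 to pass the test in Y3 against WT, with a 2.01-fold rise (adjusted p = 0.0298 by limma). That call held in 4 of 9 fits with an array left out and in 5 of 12 other settings. The fits with an array left out that kept it were those without WT array 3 or without Y3/CD103-/- array 1, 2 or 3. The Y3/CD103-/- arrays enter this comparison only through the shared estimate of spread. Without any other WT or Y3 array the call was lost. Themis was 1.77-fold higher in Y3/CD103-/- than in WT without passing the test. The CD3 chains and Cd5 differed between genotypes by 1.22-fold or less, and Zap70 and Lat by 1.49-fold or less. The 3 CD3 genes lie side by side on chromosome 9 in the order Cd3g, Cd3d and Cd3e. Cd3g and Cd3d had the most similar 9-array profiles of any pair of the 7 genes, with a root mean square distance of 0.067 log2 once each gene was set to its own mean. Cd3e, their neighbour, lay at 0.200 from Cd3d and 0.174 from Cd3g. Genes outside the receptor were nearer still: Rab7 lay at 0.048 from Cd3d and 0.039 from Cd3g, and Smcr8 at 0.052 and 0.044, so the likeness is not particular to the pair.

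The bases just before the annotated starts of these 4 genes are shown because Cd3g and Cd3d had the most similar profiles among the 7, their neighbour Cd3e differed from both, and Themis carried the largest difference. Each is the 150 bases upstream of the start, read 5′ to 3′ along the gene, from RefSeq on GRCm38.p6: Cd3g at chr9:44980432-44980581 on the minus strand, Cd3d at chr9:44981636-44981785 on the plus strand, Cd3e at chr9:45009612-45009761 on the minus strand, and Themis at chr10:28668210-28668359 on the plus strand (the first of 2 starts listed). No source used here states the build behind the arrays' own annotation. Capitals mark the E-box, CANNTG, a motif bound by basic helix-loop-helix factors.
Cd3g: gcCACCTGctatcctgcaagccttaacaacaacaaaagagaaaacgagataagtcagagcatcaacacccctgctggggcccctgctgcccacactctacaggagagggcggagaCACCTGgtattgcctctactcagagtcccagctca
Cd3d: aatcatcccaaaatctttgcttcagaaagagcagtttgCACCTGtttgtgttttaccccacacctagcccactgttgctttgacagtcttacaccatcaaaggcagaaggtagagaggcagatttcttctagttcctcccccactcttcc
Cd3e: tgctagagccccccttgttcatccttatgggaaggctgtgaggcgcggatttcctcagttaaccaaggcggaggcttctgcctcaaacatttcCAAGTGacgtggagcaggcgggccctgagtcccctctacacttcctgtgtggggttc
Themis: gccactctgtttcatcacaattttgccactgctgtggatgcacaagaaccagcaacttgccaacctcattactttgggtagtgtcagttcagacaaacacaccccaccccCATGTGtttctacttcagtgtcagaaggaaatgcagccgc

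An E-box occurred in all 4 windows, with 2 in that of Cd3g and 1 in each of the other windows, and 47.7% of the 32851 RefSeq windows of the same length held at least 1; the motif reads the same on both strands. The Ets core GGAA, searched on both strands, occurred 0 times before Cd3g, 2 times before Cd3d, 4 times before Cd3e and 1 time before Themis, and 80.8% of all windows held it. Neither the Runx core TGTGGT, present in 8.4% of all windows, nor the letters TATAAA, present in 7.6%, was in any of the 4 on either strand. The starts of Cd3g and Cd3d face away from each other at a distance of 1355 bases, while the start of Cd3e is 27825 bases from that of Cd3d. These matches describe the letters only.

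All values are log2 signals, so a step of 1 is a 2-fold difference, and signals of different genes are not compared with each other. Array medians over all 39137 features lay between 3.15 and 3.23. Taken gene by gene, the median log2 difference over the genes tested was 0.15 in Y3 against WT, 0.04 in Y3/CD103-/- against WT and -0.10 in Y3/CD103-/- against Y3. The differences of the receptor genes are also given relative to that median difference, called the median gene. A gene was said to rise or fall at a Benjamini-Hochberg adjusted p under 0.05 over all genes tested, by limma fitted to all 9 arrays. As a check of the labels, Itgae was 6.52 ± 0.42 (SD, n = 3) in Y3/CD103-/-, 9.32 ± 0.20 in Y3 and 7.93 ± 0.12 in WT, and each Y3/CD103-/- array was below every other array. Il2rb was 8.16 ± 0.31 in Y3/CD103-/-, 8.15 ± 0.32 in Y3 and 9.19 ± 0.22 in WT. All Il2rb values of both Y3 genotypes were below those of WT. Neither difference from WT passed (adjusted p = 0.059 in Y3/CD103-/- and 0.0565 in Y3 by limma). Once arrays were centred on the median of the genes tested, that in Y3 passed (adjusted p = 0.0374 by limma) and that in Y3/CD103-/- did not (0.0574). Foxp3, at 9.29 to 9.68 on the 9 arrays, and Cd4, at 7.92 to 8.45, lay far above the array medians throughout.

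Transcripts of other cells differed between the same groups of arrays. The mean of 14 intestinal epithelial markers was 4.05 to 5.74 on the Y3/CD103-/- arrays, 4.05 to 4.58 on the Y3 arrays and 5.19 to 6.44 on the WT arrays. Their summed levels in that order were 56.7 to 80.4, 56.7 to 64.1 and 72.6 to 90.2, and all 14 markers had lower means in both Y3 genotypes than in WT; array 1 of Y3/CD103-/- lay within the WT range. In the same order, the mean of 11 macrophage and dendritic cell markers was 3.64 to 3.78, 3.35 to 3.47 and 3.42 to 3.87, that of 8 B and plasma cell markers 3.42 to 3.71, 3.29 to 3.53 and 3.59 to 3.74, and that of 10 CD8, γδ and NK cell markers 3.96 to 4.22, 4.01 to 4.08 and 3.92 to 4.14. Of the last 3 lists, Cd14, Cd163, Klrk1 and Klrd1 were above the array median on 0 of 9 arrays. Above it on 9 of 9 were Csf1r, Lyz2, Cd68 and Zbtb46 of the macrophage and dendritic cell list and Cd79b and Jchain of the B and plasma cell list. So were Cd8b1, Ncr1, Prf1, Gzma and Fcer1g of the CD8, γδ and NK cell list. These markers differed in direction. In the same order, Csf1r was 4.14 to 4.73, 3.32 to 3.79 and 4.20 to 4.88. Cd68 was 6.09 to 6.23, 5.97 to 6.29 and 5.19 to 5.67. Jchain was 5.34 to 6.87, 4.48 to 5.48 and 5.66 to 6.32. Gzma was 10.31 to 10.50, 10.11 to 10.45 and 8.95 to 9.17. The mean of 6 Treg markers was 8.92 to 9.03, 8.92 to 9.06 and 8.92 to 9.01. Its members did not move alike: Il2ra was 7.28 ± 0.16 (SD, n = 3) in Y3/CD103-/-, 7.50 ± 0.10 in Y3 and 8.15 ± 0.04 in WT and fell in Y3/CD103-/- against WT (adjusted p = 0.0258), while Ikzf2 was 9.38 to 9.50, 9.39 to 9.42 and 9.04 to 9.06 in that order. In Y3 against WT, Il2ra did not pass (adjusted p = 0.079 by limma) but did after centring (0.0357). The means of 9 mast cell and granulocyte markers (2.53 to 3.00 over all arrays) and of 9 stromal and endothelial markers (3.26 to 3.42) were near or below the array medians. Single members lay above the array median on 9 of 9 arrays: Kit (4.02 to 5.70) of the former, and Pecam1 (5.22 to 5.94) and Acta2 (3.85 to 4.82) of the latter. The part of these transcripts in the differences of the receptor genes was not tested, and in a sorted population fewer cells of a type and less RNA per cell cannot be told apart.

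**Figure D1:**
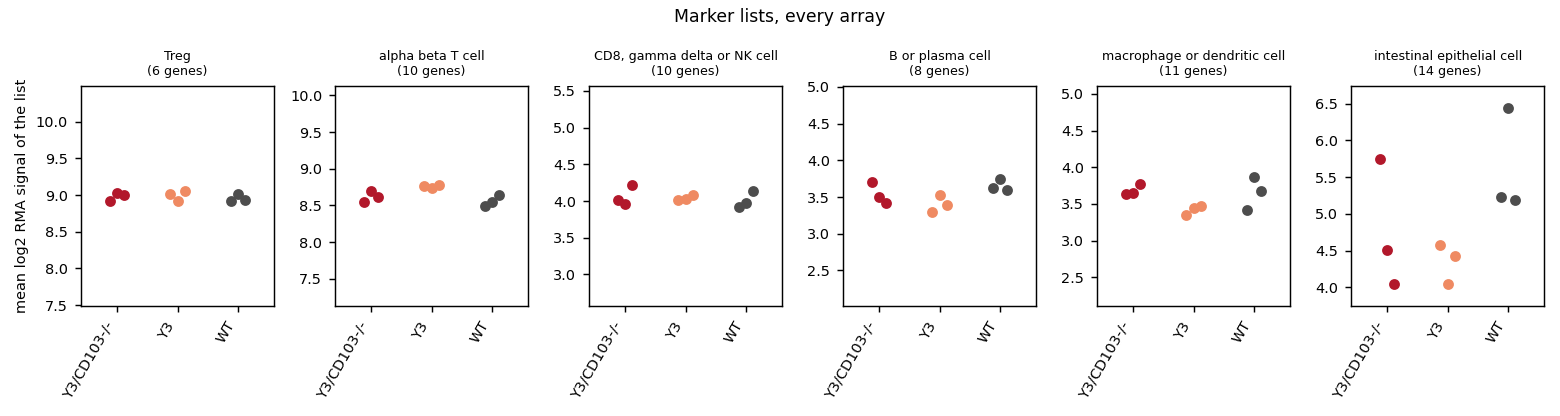
Each panel plots the mean log2 RMA signal of 1 marker list on the vertical axis, with a point for each array by genotype; panels have the same height in log2 units but different centres. The mean of the Treg markers, whose members differ in direction, stays between 8.92 and 9.06 on all arrays, while the epithelial list spans 4.05 to 6.44 and is highest on WT array 2; the alpha beta T cell list holds the 7 receptor genes.

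**Figure D2:**
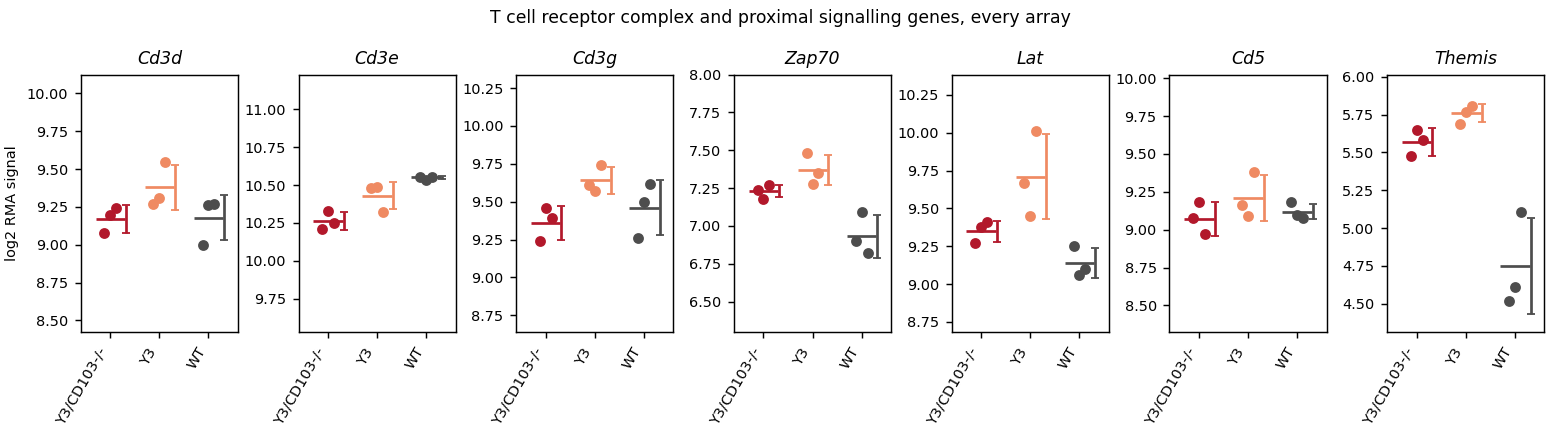
Each panel plots 1 gene, with log2 RMA signal on the vertical axis (panels span 1.7 log2 units each but are centred differently) and genotype on the horizontal axis; points are arrays, horizontal lines are means of 3 arrays and bars are 1 SD. Themis on all Y3/CD103-/- and Y3 arrays (5.48 to 5.81) lies above all WT arrays (4.52 to 5.11), whereas the groups of Cd5 overlap.

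Cd3d encodes the δ chain of CD3, which pairs with an ε chain. It read 9.08, 9.20 and 9.24 on the Y3/CD103-/- arrays, 9.27, 9.31 and 9.55 on the Y3 arrays, and 9.0, 9.26 and 9.27 on the WT arrays. The Y3 arrays were the highest, although the lowest of them and the highest WT array both round to 9.27, and the Y3/CD103-/- and WT arrays overlapped. The log2 difference was 0.20 ± 0.16 (SE) in Y3 against WT (95% interval -0.14 to 0.54, adjusted p = 0.527), and 0.05 relative to the median gene. The interval of Y3/CD103-/- against WT was -0.35 to 0.34 (adjusted p = 0.994). Against Y3, Y3/CD103-/- differed by -0.21 (-0.55 to 0.14, adjusted p = 0.674).

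Cd3g encodes the γ chain, the other partner of an ε chain in the complex. Its signal was 9.24, 9.39 and 9.46 in Y3/CD103-/-, 9.57, 9.61 and 9.74 in Y3, and 9.26, 9.50 and 9.62 in WT. Every Y3/CD103-/- array was below every Y3 array, while WT spanned most of both groups. The log2 difference was 0.18 in Y3 against WT (95% interval -0.16 to 0.52, adjusted p = 0.579), -0.10 in Y3/CD103-/- against WT (-0.44 to 0.25, adjusted p = 0.841), with -0.27 in Y3/CD103-/- against Y3 (-0.61 to 0.07, adjusted p = 0.569).

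Cd3e encodes the ε chain, present in both CD3 pairs of the complex and indispensable for its assembly. It measured 10.21, 10.25 and 10.33 in Y3/CD103-/-, 10.32, 10.48 and 10.49 in Y3, and 10.53, 10.55 and 10.55 in WT. WT was the highest group, above every array of the other groups, whereas Y3 had the highest mean for Cd3d and Cd3g, and the WT arrays had an SD of 0.01. The log2 difference was -0.28 ± 0.14 (SE) in Y3/CD103-/- against WT (95% interval -0.58 to 0.02, adjusted p = 0.416), a 1.22-fold lower signal, and -0.11 in Y3 against WT (-0.42 to 0.19, adjusted p = 0.702). Relative to the median gene these differences were -0.32 and -0.26. Neither passed the test, nor did the difference of -0.17 between Y3/CD103-/- and Y3 (adjusted p = 0.709). The intervals of all 3 CD3 genes lay within 0.61 log2 of 0 in every comparison, so a 2-fold difference of any of them falls outside the interval.

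Zap70 encodes the kinase that docks on the phosphorylated CD3 and ζ tails. Its signal was 7.18, 7.24 and 7.27 in Y3/CD103-/-, 7.28, 7.35 and 7.48 in Y3, and 6.82, 6.90 and 7.09 in WT. No array of either Y3 genotype was as low as the highest WT array. Zap70 was 1.35-fold higher in Y3 than in WT (log2 difference 0.44 ± 0.15 (SE), unadjusted p = 0.0122, adjusted p = 0.183 by limma), and 0.29 relative to the median gene. Zap70 was 1.23-fold higher in Y3/CD103-/- than in WT (0.30, 95% interval -0.02 to 0.62, adjusted p = 0.417). Against Y3, the difference was -0.14 (-0.46 to 0.18, adjusted p = 0.773). None of these passed.

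Lat, the scaffold phosphorylated by ZAP-70, gave 9.27, 9.38 and 9.41 in Y3/CD103-/-, 9.45, 9.67 and 10.01 in Y3, and 9.06, 9.10 and 9.25 in WT. The 3 genotypes did not overlap, with Y3 highest, Y3/CD103-/- between and WT lowest, and Y3 had the widest spread (SD 0.28, against 0.07 in Y3/CD103-/- and 0.10 in WT). The signal was 1.49-fold higher in Y3 than in WT (log2 difference 0.58 ± 0.17 (SE), 95% interval 0.20 to 0.95, unadjusted p = 0.00627, adjusted p = 0.141 by limma), and 0.43 relative to the median gene. It passed with a stricter filter on dim features (adjusted p = 0.0446) and with a mean-variance trend (adjusted p = 0.0196), and the difference without Y3 array 3 was 0.43 (adjusted p = 0.466). Lat in Y3/CD103-/- was 1.28-fold lower than in Y3 (-0.36, 95% interval -0.74 to 0.01, adjusted p = 0.515) and 1.16-fold higher than in WT (adjusted p = 0.638).

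**Figure D3:**
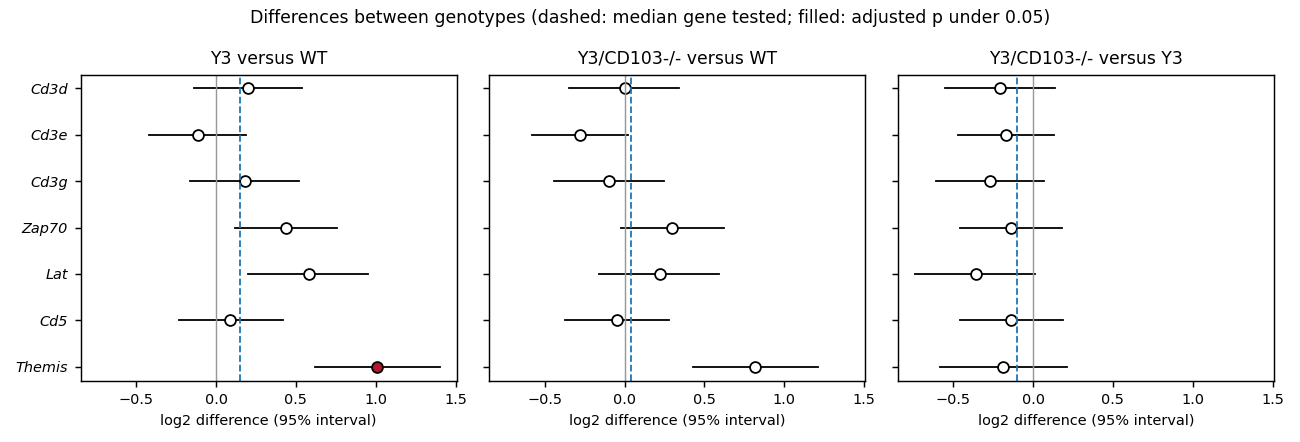
The horizontal axis gives log2 differences for the comparison named above each panel, and the vertical axis lists the 7 genes; circles are limma estimates with 95% intervals, the grey line is 0 and the dashed line is the median gene tested. Only Themis in Y3 versus WT (1.01) is filled as past the test, and in Y3/CD103-/- versus Y3 all 7 estimates, from -0.36 to -0.14, lie below the dashed line at -0.10.

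Cd5, the inhibitory surface receptor, differed by no more than 0.14 log2 in any comparison. It stood at 8.97, 9.08 and 9.18 in Y3/CD103-/-, 9.09, 9.16 and 9.38 in Y3, and 9.08, 9.10 and 9.18 in WT, and the groups overlapped in every comparison. The log2 difference was 0.09 in Y3 against WT (95% interval -0.23 to 0.42, adjusted p = 0.783), and turned to -0.07 once arrays were centred on the median of the genes tested. Y3/CD103-/- differed by -0.05 from WT (-0.37 to 0.28, adjusted p = 0.93) and by -0.14 from Y3 (-0.46 to 0.19, adjusted p = 0.785).

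Themis, named for its expression in thymocytes, gave 5.48, 5.58 and 5.65 in Y3/CD103-/-, 5.69, 5.77 and 5.81 in Y3, and 4.52, 4.61 and 5.11 in WT. The arrays of both Y3 genotypes were all above WT, where array 3, at 5.11, was the highest. Themis rose 2.01-fold in Y3 against WT (log2 difference 1.01 ± 0.18 (SE), 95% interval 0.62 to 1.40, adjusted p = 0.0298), higher on 3 of 3 arrays, and by 0.86 relative to the median gene. Its 1.77-fold higher signal in Y3/CD103-/- against WT did not pass (0.82, 95% interval 0.43 to 1.21, adjusted p = 0.0632), and Y3/CD103-/- and Y3 differed by -0.19 (-0.58 to 0.21, adjusted p = 0.746). Both comparisons with WT use the same 3 WT arrays.

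The rise of Themis in Y3 depended on single arrays and on the scaling. The adjusted p was 0.0679 without WT array 1, 0.0886 without WT array 2, 0.124, 0.0852 and 0.16 without Y3 arrays 1, 2 and 3, and 0.145 with Y3 arrays 1 and 3, the most alike, averaged, while the log2 difference stayed between 0.90 and 1.19 with any array left out. It was 0.084 after quantile normalization and 0.0752 after centring, where the difference was 0.84. The difference of Y3/CD103-/- from WT passed without WT array 3 (1.01, adjusted p = 0.0383), with the stricter filter (0.0117) and with the trend (0.0244). An alternative chosen after seeing the data left out WT array 2 and Y3/CD103-/- array 1, the arrays of highest epithelial signal in their groups. The log2 difference of Themis from WT was then 0.94 in Y3 (adjusted p = 0.102) and 0.80 in Y3/CD103-/- (adjusted p = 0.19). Epithelial list means were still higher in WT, at 5.19 and 5.23, than in Y3, at 4.05 to 4.58, or Y3/CD103-/-, at 4.05 and 4.50.

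The 5 genes whose 9-array profiles were nearest to that of Themis, by the root mean square distance after each gene was set to its own mean, were Plcb4 at 0.103, Carnmt1 at 0.122, Atp2a3 at 0.136, Casp4 at 0.137 and Nab1 at 0.138 log2. Plcb4 encodes a phospholipase C of the β family, Atp2a3 the SERCA3 calcium pump, Casp4 an inflammatory caspase and Nab1 a corepressor of EGR factors. All are descriptions over 9 arrays. None of the other 6 receptor genes came nearer to Themis than Lat, at 0.336.

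Counted together, 1 of the 7 receptor genes rose and 0 fell in Y3 against WT, where 0.790% of all genes tested were called. At an unadjusted p under 0.05, 3 of the 7 differed, Zap70, Lat and Themis, all of them higher, against 17.0% of all genes (13.4% higher and 3.60% lower). The groups did not overlap for 5 of the 7, with Cd3d, Zap70, Lat and Themis higher and Cd3e lower, against 23.9% of all genes (19.0% higher and 4.93% lower). The median difference of the 7 was 0.20, beside 0.15 for all genes tested.

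Set against WT, Y3/CD103-/- had 0 of the 7 called by limma, against 0.836% of all genes (0.555% higher and 0.281% lower). Themis alone had an unadjusted p under 0.05 and was higher, against 13.3% of all genes (7.90% higher and 5.35% lower). The groups did not overlap for 4 of the 7 genes, Zap70, Lat and Themis higher and Cd3e lower, against 17.4% of all genes (10.7% higher and 6.68% lower). Set against Y3, 0 of the 7 were called, against 0.00782% of all genes, and 0 had an unadjusted p under 0.05, against 9.90%. That share called is 1 gene, Itgae, which encodes CD103 (log2 difference -2.81, adjusted p = 0.000679 by limma). All 7 were lower in Y3/CD103-/-, by a median of 0.19 where the median gene was lower by 0.10, and the groups did not overlap for 5 of them (Cd3d, Cd3g, Zap70, Lat and Themis), against 18.6% of all genes (4.11% higher and 14.4% lower). After centring, Zap70 and Cd5 were higher by 0.01 in that comparison.

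Genes that act beside the receptor at the surface showed differences of both signs. Of 13 tested, 0 passed limma in any comparison, where 0.790%, 0.836% and 0.00782% of all genes were called in the order given next. By an unadjusted p under 0.05, 2 were higher and 1 was lower in Y3 against WT (13.4% and 3.60% of all genes), the same counts held for Y3/CD103-/- against WT (7.90% and 5.35%), and 0 were higher and 1 was lower in Y3/CD103-/- against Y3 (1.78% and 8.12%). Cd28, the costimulatory receptor, was 7.72 ± 0.27 (SD, n = 3) in Y3/CD103-/-, 7.68 ± 0.16 in Y3 and 8.34 ± 0.03 in WT, with adjusted p = 0.107 for Y3 against WT. All arrays of both Y3 genotypes were below all WT arrays. Icos, its inducible relative, was 10.57 ± 0.13 in Y3/CD103-/-, 10.54 ± 0.14 in Y3 and 10.09 ± 0.16 in WT, and Cd96, a receptor of nectin-like proteins, was 8.96 ± 0.14, 9.13 ± 0.02 and 8.46 ± 0.12 (adjusted p = 0.0721 for Y3 against WT). Ptprc, the CD45 phosphatase that keeps Lck ready, was 10.29, 10.40 and 10.29 on average, and the 95% interval of its log2 difference was -0.21 to 0.42 in Y3 against WT, -0.32 to 0.31 in Y3/CD103-/- against WT and -0.42 to 0.20 in Y3/CD103-/- against Y3. Slamf6, a receptor of the SLAM family, differed by -0.49 between Y3/CD103-/- and Y3 (adjusted p = 0.438), and Cd48, a ligand of CD2, differed by -0.25 there (adjusted p = 0.641).

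Of 85 other genes listed for the pathway downstream of the receptor (kinases, adaptors, enzymes, the calcium arm and brakes), 76 were tested. In Y3 against WT, 1 rose and 0 fell by limma, where 0.618% of all genes rose and 0.172% fell. By the unadjusted p, 20 were higher and 2 lower (13.4% and 3.60% of all genes). The median difference was 0.22 beside 0.15 for all genes. Against WT, 0 rose and 1 fell in Y3/CD103-/-, where 0.555% of all genes rose and 0.281% fell. There 14 were higher and 9 lower by the unadjusted p (7.90% and 5.35%), and the median was 0.06 beside 0.04. Against Y3, 0 were called by limma in Y3/CD103-/-, where 0.00782% of all genes were called. By the unadjusted p, 1 was higher and 13 were lower (1.78% and 8.12% of all genes), and the median was -0.14 beside -0.10.

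Btla, an inhibitory receptor of the CD28 family that recruits SHP-1, was the rise in Y3. It was 6.67, 7.10 and 7.22 in Y3/CD103-/-, 7.09, 7.10 and 7.17 in Y3, and 5.93, 6.25 and 6.36 in WT. The WT arrays lay below all others. The log2 difference was 0.94 ± 0.18 (SE) in Y3 against WT (adjusted p = 0.0475), and Y3/CD103-/- differed from WT by 0.81 without passing (adjusted p = 0.0738). The rise passed in 1 of 9 fits with an array left out, that without Y3/CD103-/- array 1 (adjusted p from 0.0356 to 0.216 over the 9), and not after quantile normalization (0.0911). Pdcd1, the PD-1 receptor, ran the other way, at 6.28 ± 0.14 (SD, n = 3) in Y3/CD103-/-, 6.12 ± 0.29 in Y3 and 6.96 ± 0.27 in WT (adjusted p = 0.0856 for Y3 against WT). It passed after quantile normalization and after centring.

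Malt1, the paracaspase that carries the receptor signal to NF-κB, was the fall in Y3/CD103-/-. It read 7.64, 7.75 and 8.0 in Y3/CD103-/-, 8.11, 8.23 and 8.26 in Y3, and 8.68, 8.72 and 8.75 in WT, and the 3 genotypes did not overlap. The log2 difference in Y3/CD103-/- against WT was -0.92 ± 0.15 (SE), with an adjusted p of 0.0224, and Y3 differed from WT by -0.51 (adjusted p = 0.134). The fall passed in 3 of 9 fits with an array left out, those without Y3 array 2, Y3 array 3 or Y3/CD103-/- array 2 (adjusted p from 0.0344 to 0.0911 over the 9). Bcl10, its partner in the same complex, was 7.29 ± 0.20 (SD, n = 3), 7.21 ± 0.17 and 6.76 ± 0.17 in the order Y3/CD103-/-, Y3 and WT, higher by 0.53 in Y3/CD103-/- than in WT without passing (adjusted p = 0.201).

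**Figure D4:**
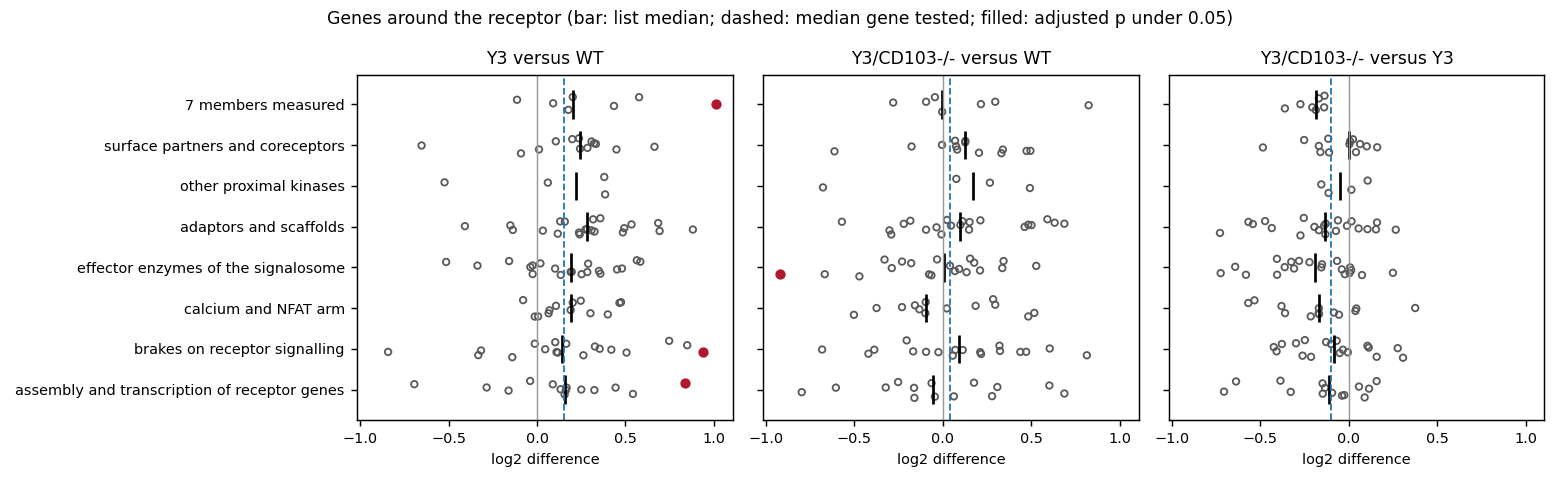
Each row is a gene list and each panel a comparison, with log2 differences on the horizontal axis; circles are genes, black bars are list medians, the dashed line is the median gene tested, and filled circles passed at an adjusted p under 0.05. The filled genes are Themis, Btla and Runx3 in Y3 versus WT and Malt1 in Y3/CD103-/- versus WT, and no circle is filled in Y3/CD103-/- versus Y3.

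Among the adaptors, 0 of 21 passed limma in any comparison. Of all genes, 0.790%, 0.836% and 0.00782% were called in the order given next. By the unadjusted p, 5 were higher and 0 lower in Y3 against WT (13.4% and 3.60% of all genes), 5 higher and 1 lower in Y3/CD103-/- against WT (7.90% and 5.35%), and 0 higher and 4 lower in Y3/CD103-/- against Y3 (1.78% and 8.12%). Nck1, which links the CD3 ε tail to the actin skeleton, was 4.71 ± 0.10 (SD, n = 3) in Y3/CD103-/-, 4.90 ± 0.19 in Y3 and 4.02 ± 0.30 in WT (log2 difference in Y3 against WT 0.88, adjusted p = 0.0555). Trat1, a transmembrane adaptor that associates with the receptor complex, was 7.75 ± 0.12, 7.81 ± 0.06 and 7.12 ± 0.18 in that order (0.69 in Y3 against WT, adjusted p = 0.0721). For both genes every WT array was below every other array. Grb2, which binds both THEMIS and LAT, was 7.30 ± 0.09, 7.03 ± 0.18 and 6.71 ± 0.05, and Y3/CD103-/- differed from WT by 0.59 (adjusted p = 0.104). Grap2, a relative found on LAT, was 7.43 ± 0.05, 7.44 ± 0.22 and 6.95 ± 0.10 (adjusted p = 0.167 in Y3 against WT).

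Tespa1, an adaptor with a role, like Themis, in thymocyte selection, was lowest in Y3/CD103-/-. It was 5.32, 5.38 and 5.59 in Y3/CD103-/-, 6.03, 6.14 and 6.31 in Y3, and 5.81, 5.91 and 6.28 in WT. Its log2 difference was -0.73 in Y3/CD103-/- against Y3 (adjusted p = 0.308) and -0.57 against WT (adjusted p = 0.177), and neither passed. Lcp2, the SLP-76 adaptor that joins LAT, had 95% intervals between -0.40 and 0.45 in the 3 comparisons. Rhoh, whose product helps recruit ZAP-70, and Sh2d1a, the SAP adaptor of SLAM receptors, differed by -0.57 and -0.54 in Y3/CD103-/- against Y3 (adjusted p = 0.343 and 0.418).

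Of the 4 other proximal kinases tested, 0 passed limma in any comparison. Of all genes, 0.790%, 0.836% and 0.00782% were called in the order given next. By the unadjusted p, 2 were higher and 0 lower in Y3 against WT (13.4% and 3.60% of all genes), 1 was higher and 1 lower in Y3/CD103-/- against WT (7.90% and 5.35%), and 0 were past it in Y3/CD103-/- against Y3 (9.90%). Fyn, a Src family kinase of T cells, was 7.92 ± 0.17 (SD, n = 3) in Y3/CD103-/-, 8.04 ± 0.10 in Y3 and 7.66 ± 0.20 in WT (adjusted p = 0.27 in Y3 against WT). Txk, of the Tec family, was 6.96 ± 0.09, 6.85 ± 0.17 and 6.47 ± 0.22, and Tec itself 4.40 ± 0.13, 4.56 ± 0.54 and 5.08 ± 0.32. Txk and Tec thus differed from WT with opposite signs, by 0.49 and -0.68 in Y3/CD103-/- (adjusted p = 0.224 and 0.288).

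Among the 20 effector enzymes and their partners tested, Malt1 was the only call. Of all genes, 0.790% were called in Y3 against WT, 0.836% in Y3/CD103-/- against WT and 0.00782% in Y3/CD103-/- against Y3. Plcg1, the phospholipase C that LAT recruits, was 6.62 ± 0.13 (SD, n = 3) in Y3/CD103-/-, 6.98 ± 0.08 in Y3 and 6.70 ± 0.13 in WT. Vav1, the exchange factor on SLP-76, was 5.16 ± 0.08, 5.88 ± 0.19 and 5.63 ± 0.35, with a log2 difference of -0.72 in Y3/CD103-/- against Y3 (adjusted p = 0.314). Prkcq, the protein kinase C θ upstream of MALT1, was 5.90 ± 0.42, 6.54 ± 0.16 and 6.56 ± 0.22, and its difference in that comparison was -0.64 (adjusted p = 0.413). None of the 3 passed in any comparison. By the unadjusted p, 5 of the 20 were higher and 1 lower in Y3 against WT (13.4% and 3.60% of all genes), 1 higher and 3 lower in Y3/CD103-/- against WT (7.90% and 5.35%), and 0 higher and 6 lower in Y3/CD103-/- against Y3 (1.78% and 8.12%). Map4k1, a kinase that dampens SLP-76, and Vav2, a relative of Vav1, differed by 0.58 and 0.56 in Y3 against WT (adjusted p = 0.143 and 0.18). Sos1, the Ras exchange factor carried by GRB2, differed by -0.58 between Y3/CD103-/- and Y3 (adjusted p = 0.384).

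The calcium arm held 13 tested genes, of which 0 passed limma in any comparison. Of all genes, 0.790%, 0.836% and 0.00782% were called in the order given next. By the unadjusted p, 3 were higher and 0 lower in Y3 against WT (13.4% and 3.60% of all genes), 2 higher and 1 lower in Y3/CD103-/- against WT (7.90% and 5.35%), and 1 higher and 2 lower in Y3/CD103-/- against Y3 (1.78% and 8.12%). Orai1, the store-operated calcium channel, was 7.24 ± 0.14 (SD, n = 3) in Y3/CD103-/-, 7.20 ± 0.09 in Y3 and 6.72 ± 0.32 in WT, and Stim1, its sensor in the endoplasmic reticulum, was 6.28 ± 0.25, 6.45 ± 0.14 and 5.98 ± 0.23. Their adjusted p in Y3 against WT was 0.231 and 0.239. Nfatc2, a transcription factor that calcium signals activate, was 6.58 ± 0.10, 6.21 ± 0.13 and 6.10 ± 0.25, highest in Y3/CD103-/- (0.48 against WT, adjusted p = 0.24). Stim2, a relative of Stim1, differed by 0.40 in Y3 against WT (adjusted p = 0.262). Ppp3cc and Ppp3cb, catalytic subunits of the phosphatase calcineurin that activates NFAT, differed by -0.57 and -0.53 in Y3/CD103-/- against Y3 (adjusted p = 0.414 and 0.441).

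Of the 18 brakes tested, Btla was the only call, where 0.790%, 0.836% and 0.00782% of all genes were called in the order given next. By the unadjusted p, 5 were higher and 1 lower in Y3 against WT (13.4% and 3.60% of all genes), 5 higher and 3 lower in Y3/CD103-/- against WT (7.90% and 5.35%), and 0 higher and 1 lower in Y3/CD103-/- against Y3 (1.78% and 8.12%). Ptpn6, which encodes the phosphatase SHP-1 that THEMIS binds, was 5.50 ± 0.19 (SD, n = 3) in Y3/CD103-/-, 5.91 ± 0.12 in Y3 and 5.92 ± 0.22 in WT, with a log2 difference of -0.42 in Y3/CD103-/- against WT (adjusted p = 0.313). Ptpn11, the related phosphatase SHP-2, was 5.38 ± 0.30, 5.76 ± 0.06 and 4.91 ± 0.25, higher by 0.85 in Y3 than in WT (adjusted p = 0.075), and it passed with the stricter filter, with a mean-variance trend and with array weights. Dok1, an adaptor that recruits a Ras inhibitor, was 4.94 ± 0.38, 5.36 ± 0.19 and 4.61 ± 0.11 (adjusted p = 0.117 in Y3 against WT). Dusp22, a phosphatase that acts on Lck, differed by 0.60 in Y3/CD103-/- against WT (adjusted p = 0.305). Constant regions of the receptor chains were not analysed here. Fcer1g, a chain related to ζ that other receptors use, was 4.16 ± 0.11, 3.65 ± 0.08 and 4.52 ± 0.68 and did not pass (adjusted p = 0.167 in Y3 against WT).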

How the data were processed

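Total RNA of sorted Tregs was amplified, biotin-labelled and hybridized to 9 arrays, per the labels. The deposited values are log2 signals; RMA is the tool that the submitters' processing notes name, with no version or settings in the sources used here. Of 39137 features, 23521 were annotated to 1 gene, and 0 symbols changed through the GRCm38.p6 gene table. The brightest feature was kept for each of 22180 genes. A gene was tested if above its array's median on at least 3 of 9 arrays (12792 genes). limma 3.58.1 (lmFit, eBayes) in R 4.3.3 fitted 3 group means without a block, 2-sided, with Benjamini-Hochberg adjustment. On simulated data it recovered 57% to 63% of 2-fold changes and 97% of 4-fold changes, with 5 to 12 false calls per comparison. The 95% interval of the median gene's log2 difference reached 0.45 to either side.

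Members and gene lists were chosen with earlier results of these data known. All members were named; of each list, up to 3 genes of smallest p per comparison, every gene called, and Fyn, Lcp2, Plcg1, Ptprc, Ptpn6 and Grb2. Alternatives changed the filter, feature choice, scaling, variance model, weights, arrays, block and threshold. Deviations of same-numbered arrays from their group means correlated at -0.044 to 0.107 over genes. Differently numbered arrays were not compared, so this does not settle whether the replicate numbers pair arrays.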

Additional observations from a re-analysis of the deposited data

How the results depend on the processing

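The 7 receptor genes were fitted in 3 comparisons under 21 alternatives. Of the differences so recomputed, 415 kept their sign and their side of the threshold, 12 lost a call, 5 gained one, and 9 turned their sign. All 12 losses were of Themis in Y3 against WT, the only call among these genes, which was kept in 9 of the 21 alternatives. The other differences had no call to lose, so for them the same side of the threshold means not called. In Y3 against WT the count of 1 gene called (Themis) became 2 with a stricter filter or a mean-variance trend, where Lat joined it, and 0 with no filter, after quantile normalization, after centring, with only the 2 groups compared, with the replicate number as a block, with Y3 arrays 1 and 3 averaged and with both arrays of highest epithelial signal left out; it was 0 to 1 with an array left out. In Y3/CD103-/- against WT, 0 became 1 (Themis) with the stricter filter, the trend and an adjusted p under 0.1, and was 0 to 1 with an array left out. In Y3/CD103-/- against Y3 it was 0 throughout. Of the other pathway genes, 1 in Y3 against WT became 7 with the stricter filter or the trend, 5 with array weights or an adjusted p under 0.1, and 0 with no filter, the 2 groups alone, the block, Y3 arrays averaged or the epithelial arrays left out, and 0 to 1 with an array left out. The count stayed 1 after quantile normalization and after centring, but the gene was then Pdcd1, which was lower, in place of Btla, which was higher. In Y3/CD103-/- against WT, 1 became 4, 5 and 3 with the stricter filter, the trend and an adjusted p under 0.1, and 0 with no filter, the 2 groups alone, the block or the epithelial arrays left out, and 0 to 1 with an array left out. The calls over all genes moved in the same settings. In Y3 against WT they were 309 of 4771 with the stricter filter, which left 57 of the other pathway genes tested. They were 332 of 12792 with the trend, 346 with array weights and 299 with an adjusted p under 0.1. In Y3/CD103-/- against WT they were 273 of 4771, 303 and 280 with the stricter filter, the trend and an adjusted p under 0.1. Over all genes the counts of 101 in Y3 and 107 in Y3/CD103-/- against WT ranged from 8 to 346 and from 17 to 303. That of 1 in Y3/CD103-/- against Y3 ranged from 1 to 9. Of those called in Y3, 79 of 101 were higher, against 46 of 78 after quantile normalization and 46 of 100 after centring; the count was 8 without Y3 array 3. The signs that turned were of small differences: Cd5 in Y3 against WT became -0.07 and Cd5 and Zap70 in Y3/CD103-/- against Y3 became 0.01 after centring; in Y3/CD103-/- against WT, Cd5 became 0.01 without Y3/CD103-/- array 3 (-0.10 to 0.01 with an array left out), and Cd3d became 0.02 with array weights, 0.04 without WT array 2, WT array 3 or Y3/CD103-/- array 1 (-0.09 to 0.04 with an array left out), and 0.09 without the epithelial arrays. The cause was not tested. The number of arrays limits the precision. The paired fit, with the replicate number as a block, gave Themis an adjusted p of 0.0536 in Y3 against WT and called 54 genes there in place of 101.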

Other observations

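Transcription factors that act on receptor and CD3 genes or on T cell identity were listed too, and 14 were tested. Runx3, a Runt factor of CD8 and effector T cells, rose in Y3 against WT: it was 6.29, 6.36 and 6.37 in Y3/CD103-/-, 6.26, 6.57 and 6.64 in Y3, and 5.47, 5.66 and 5.83 in WT. The log2 difference was 0.83 ± 0.16 (SE) in Y3 against WT (adjusted p = 0.0455 by limma), and Y3/CD103-/- differed from WT by 0.69 without passing (adjusted p = 0.0872). Leaving out 1 array at a time, it passed in 0 of 9 fits (0.0596 to 0.221 after adjustment), and not after quantile normalization (0.0759). Gata3, which T cells need at several stages, was 6.93 ± 0.10 (SD, n = 3) in Y3/CD103-/-, 6.84 ± 0.07 in Y3 and 7.53 ± 0.08 in WT (adjusted p = 0.0551 in Y3 against WT). Its lower signal in Y3 passed after centring (adjusted p = 0.0316 by limma). Satb1, a chromatin organizer of T cells, was 8.01 ± 0.13, 7.85 ± 0.08 and 7.40 ± 0.18 in the same order (adjusted p = 0.11 in Y3/CD103-/- against WT).

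Lef1, an HMG-box factor of resting T cells, and Myb had their lowest means in Y3/CD103-/-. Lef1 was 6.01 ± 0.29 (SD, n = 3) in Y3/CD103-/-, 6.64 ± 0.10 in Y3 and 6.80 ± 0.44 in WT, and its log2 difference was -0.80 in Y3/CD103-/- against WT (adjusted p = 0.152). Myb was 5.55 ± 0.27, 6.26 ± 0.16 and 5.71 ± 0.15, with -0.71 in Y3/CD103-/- against Y3 (adjusted p = 0.308). Bcl11b, a factor of T cell commitment, differed by -0.39 in the same comparison (adjusted p = 0.489). Of the 14, Runx3 was the only call by limma, where 0.790%, 0.836% and 0.00782% of all genes were called in the order given next. At an unadjusted p under 0.05, 3 were higher and 1 lower in Y3 against WT (13.4% and 3.60% of all genes), 2 higher and 3 lower in Y3/CD103-/- against WT (7.90% and 5.35%), and 0 higher and 3 lower in Y3/CD103-/- against Y3 (1.78% and 8.12%).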
